A study of Capra hircus with 10 samples.

Results

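ITGAV encodes integrin alpha V, and the 3 circular RNAs (circRNAs) of this gene among the 1327 circRNAs counted in goat intramuscular fat cells were examined for which of them were made in preadipocytes and in adipocytes. They are circ_0000943, circ_0000946 and circ_0000948, and they were taken by the gene name in the authors' annotation. The gene was chosen by measured values, namely the junction reads of its circRNAs in adipocytes against preadipocytes. All levels and shares of ITGAV between those groups are therefore given as a description, without a test.

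Integrins are cell surface receptors made of an alpha and a beta chain, which bind proteins of the extracellular matrix and connect them to the cytoskeleton. Integrin alpha V pairs with several beta chains and binds ligands that carry an RGD motif, such as vitronectin and fibronectin. Preadipocytes change shape and remodel the matrix around them when they become adipocytes, and integrins signal through focal adhesion kinase and the PI3K-Akt pathway. In back-splicing, the end of an exon is ligated to the start of the same or an earlier exon, which closes a circle. Thus 1 gene can give several circles from different exons.

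Cells were isolated from fat within the longissimus dorsi muscle of 3 male Jianzhou goats aged 7 days, labelled as wild type. Intramuscular preadipocytes (IMPA) were collected on day 0, and intramuscular adipocytes (IMA) on day 3 of induction in medium with 50 µmol/L oleic acid, with 5 libraries in each group. With 3 goats, the 5 libraries of a group were not all separate animals, so SDs and p values describe libraries. The libraries held 14156, 11421, 14355, 12283 and 15553 junction reads in IMPA1 to IMPA5 and 11145, 10066, 12499, 9622 and 10234 in IMA1 to IMA5. A junction read crosses the back-splice and belongs to the circle, whereas a non-junction read lies at the same ends without crossing it and was taken here as linear RNA.

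The 3 circRNAs came from separate parts of the gene. They lie on the plus strand of chromosome 2, in deposited coordinates counted from 1, whose genome build is not given in the sources used here. circ_0000943 runs from 126784953 to 126793052 and joins 5 exons, at 126784953 to 126784998, 126786386 to 126786493, 126788092 to 126788150, 126789642 to 126789796 and 126792915 to 126793052. These exons measure 46, 108, 59, 155 and 138 nt and give a circle of 506 nt. circ_0000946 begins 3609 nt downstream of it and runs from 126796662 to 126798108. Its 3 exons, at 126796662 to 126796729, 126797338 to 126797485 and 126798016 to 126798108, measure 68, 148 and 93 nt and give a circle of 309 nt. After a further 4284 nt, circ_0000948 runs from 126802393 to 126805490. Its 3 exons, at 126802393 to 126802472, 126802844 to 126802941 and 126805377 to 126805490, measure 80, 98 and 114 nt and give a circle of 292 nt. No exon and no end was shared between the circles, and together they covered 11 exons within 20538 nt.

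**Figure D1:**
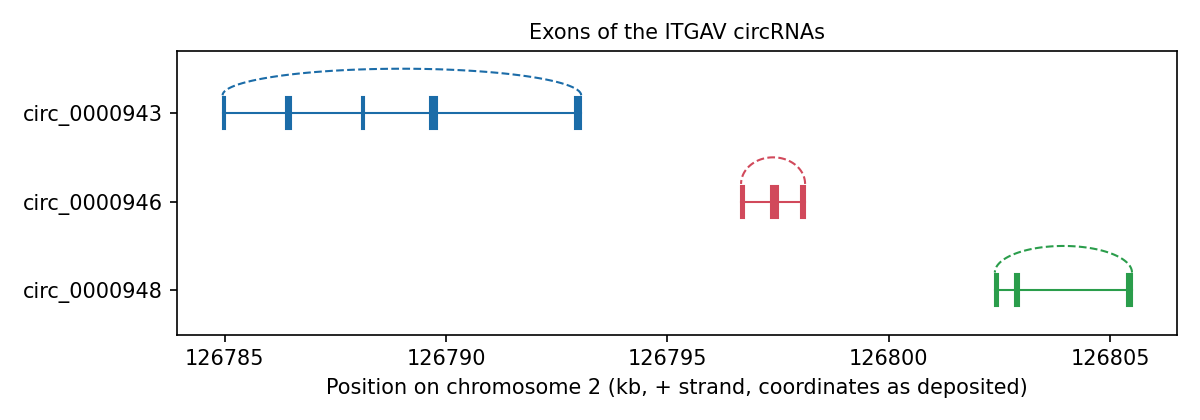
Map of the ITGAV circRNAs on chromosome 2, drawn to scale, with the position in kb on the horizontal axis. Boxes are exons, lines are the introns between them and dashed arcs join the ends that the back-splice connects; the 3 circles follow each other without overlap.

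Exons made up 6.25% of the span of circ_0000943, 21.4% of that of circ_0000946 and 9.43% of that of circ_0000948. The introns inside circ_0000943 measured 1387, 1598, 1491 and 3118 nt. Those inside circ_0000946 were short, at 608 and 530 nt, and those inside circ_0000948 measured 371 and 2435 nt. Among the 1274 circRNAs of exons in the table, the median circle had 2 exons, a spliced length of 320 nt and a span of 8217 nt. circ_0000943 was at the 95.1 percentile of spliced length and the 99.3 percentile of exon number, so it was among the longer circles. circ_0000946 was near the middle in spliced length, at the 45.1 percentile, and at the 10.8 percentile of span.

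Separate circles from 1 gene were uncommon in the table. Of 66 genes with at least 3 exon circRNAs, 4 had no overlap between any of their spans, and ITGAV was 1 of these beside DIAPH3, OSBPL1A and UTRN. The other integrin alpha chain with several circRNAs, ITGA4, showed the opposite arrangement: its 3 circRNAs all contained the same 2 exons, at 121212428 to 121212539 and 121219892 to 121219986 of chromosome 2. Over all 10 libraries, 89.8% of the 362 ITGAV junction reads belonged to the most abundant circle, against a median of 47.7% over the 66 genes. DIAPH3 had 40.2% of its 102 reads in its leading circle, OSBPL1A 36.2% of 257 and UTRN 34.6% of 312. These shares depend on the number of circles, which was 3 for ITGAV and DIAPH3 and 4 for OSBPL1A and UTRN. Of the 66 genes, 44 had exactly 3. In ITGAV 2 circles were also absent from a whole group, the pattern it was chosen for, against 0 in DIAPH3, OSBPL1A and UTRN.

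circ_0000943 was the main circle of ITGAV in every library. It had 34, 30, 31, 35 and 32 junction reads in IMPA1 to IMPA5 and 48, 26, 29, 29 and 31 in IMA1 to IMA5. With a mean count at rank 43 of 1327, it stood well above the median circRNA, whose mean count was 5.50. Normalized TPM, the count per 1000000 junction reads after TMM scaling, was 2484, 2601, 2299.6, 2919 and 2106 in IMPA and 4239, 2476, 2321, 2904 and 2973 in IMA. The means of 2481.8 ± 308 (IMPA) and 2982.5 ± 755 (IMA; SD, n = 5 each) belonged to overlapping groups, and IMA1 was the highest library.

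circ_0000946 was listed in preadipocytes and not in adipocytes. Its junction reads were 7, 3, 10, 2 and 3 in IMPA1 to IMPA5 and 0 in each of the 5 IMA libraries. In normalized TPM, the IMPA libraries had 512, 260.1, 742, 167 and 197, with a mean of 376 ± 246 (SD, n = 5). IMPA3 and IMPA1 were the highest, and the level differed widely among the preadipocyte libraries. circ_0000948 had the reverse distribution, with 0 junction reads in each IMPA library and 2, 2, 3, 2 and 3 in IMA1 to IMA5. Its normalized TPM in IMA was 177, 190.5, 240.1, 200.3 and 288, with a mean of 219 ± 45.1 (SD, n = 5). These levels rest on 2 to 3 reads in a library.

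The zeros need care. The IMA libraries had fewer non-junction reads, with 128138 to 173047 over the 690 circRNAs listed in all libraries. The IMPA libraries had 177795 to 244354, without overlap. circ_0000946 was at 0 in the group with fewer of these reads and circ_0000948 at 0 in the group with more. In junction reads the groups overlapped: IMA3, with 12499, had 0 reads of circ_0000946, while IMPA2 and IMPA4, with 11421 and 12283, had 3 and 2. In the paper, the numbers of clean reads overlap between the groups, whereas the mapping ratio is lower for every IMA library than for any IMPA library. Fewer counted reads are thus not a separate sign of less sequencing in IMA. The parts of counted reads and of mapping in the zeros were not tested. No count of 1 occurs in the table and the smallest count above 0 is 2, so a 0 may stand for a single read, and no limit or fold is set against the zeros here. The table also favours circRNAs that are complete in a group: 1243 of 1327 (93.7%) were listed in all 5 IMPA or all 5 IMA libraries, and the other 84 were listed in all 5 libraries of a further library name that was not used. A circRNA with few reads in some libraries of both groups would thus seldom have entered the table. Of 1081 circRNAs listed in all 5 IMPA libraries, 1 was in no IMA library, and this was circ_0000946. Of 852 listed in all 5 IMA libraries, 4 were in no IMPA library, namely circ_0000948, circ_0001729 of SRSF11, circ_0002854 of MYBPC1 and circ_0009572 of CHD2, which are named here after their values were seen. ITGAV was the single gene with a circle on both sides, the pattern it was chosen for. In normalized TPM without overlap between the groups, 2.24% of the 1294 tested circRNAs were higher in IMA and 2.16% were lower. These shares stand beside the 1 ITGAV circle on each side and nothing is read from them.

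**Figure D2:**
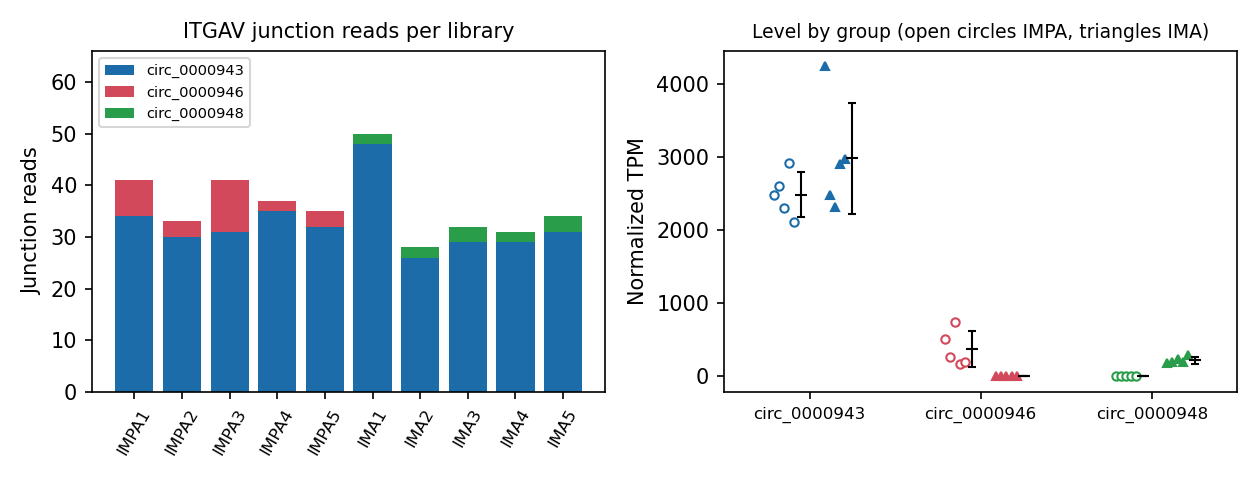
Left, junction reads of the 3 ITGAV circRNAs in each of the 10 libraries as stacked bars. Right, normalized TPM of each circRNA with IMPA libraries as open circles and IMA libraries as triangles, and the mean with SD (n = 5) as a black bar; circ_0000946 is at 0 in IMA and circ_0000948 at 0 in IMPA, while circ_0000943 overlaps between the groups.

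Shares of the ITGAV junction reads put the circles on a common scale within a library. The share of circ_0000943 was 82.9%, 90.9%, 75.6%, 94.6% and 91.4% in IMPA1 to IMPA5 and 96.0%, 92.9%, 90.6%, 93.5% and 91.2% in IMA1 to IMA5. The groups overlapped, with means of 87.1% ± 7.73 for IMPA and 92.8% ± 2.13 for IMA (SD, n = 5 each). The difference of 5.75 points fell to 2.88 without IMPA3. The remaining share was circ_0000946 in IMPA, with 17.1%, 9.09%, 24.4%, 5.41% and 8.57%, and circ_0000948 in IMA, with 4%, 7.14%, 9.38%, 6.45% and 8.82%. Which circle was the minor form thus differed between the groups in all 10 libraries, whereas the size of the minor share overlapped, with means of 12.9% ± 7.73 for IMPA and 7.16% ± 2.13 for IMA (SD, n = 5 each).

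Single libraries bound these shares loosely. The exact 95% binomial interval of the circ_0000946 share was 12.4% to 40.3% in IMPA3, the highest library, and 0.661% to 18.2% in IMPA4, the lowest. For circ_0000948 it was 1.98% to 25% in IMA3 and 0.488% to 13.7% in IMA1. From summed reads, circ_0000946 took 25 of 187 reads in IMPA, or 13.4% (8.84% to 19.1%), and circ_0000948 took 12 of 175 in IMA, or 6.86% (3.59% to 11.7%). Without molecular identifiers in the reads, such intervals cover counting error at most. They leave out that the gene was chosen on these reads and that listed counts start at 2. The shares of the minor circles may therefore be biased, and nothing is read from the intervals beyond their width.

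The sum over the 3 circles differed little. It was 41, 33, 41, 37 and 35 reads in IMPA1 to IMPA5 and 50, 28, 32, 31 and 34 in IMA1 to IMA5. Normalized to TPM it was 2996, 2861, 3041, 3085 and 2303 in IMPA and 4415, 2666, 2561, 3104 and 3260 in IMA. The means were 2857.4 ± 321 and 3201.5 ± 739 (SD, n = 5 each), a mean log2 difference of 0.14 that fell to 0.01 without IMA1, and the groups overlapped.

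Non-junction reads were listed only where a library had junction reads of that circle. For circ_0000943 they numbered 863, 675, 804, 837 and 864 in IMPA1 to IMPA5 and 608, 533, 688, 460 and 536 in IMA1 to IMA5. After TMM scaling to 1000000 non-junction reads of the 690 circRNAs listed in all libraries, they were 4116, 3686, 3876, 4139 and 3441 in IMPA and 4305, 3991, 4019, 3696 and 3913 in IMA. The groups overlapped, with means of 3851.5 ± 295 and 3984.9 ± 219 (SD, n = 5 each) and a log2 difference of 0.05, while 12.2% of the 690 circRNAs were higher in IMA without overlap and 10% were lower. This level was at the 93.3 percentile of the 690, so the linear RNA around circ_0000943 was abundant in both groups.

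At circ_0000946, the IMPA libraries had 779, 634, 752, 767 and 792 non-junction reads, which was 0.922 ± 0.0151 (SD, n = 5) of those at circ_0000943. At circ_0000948, the IMA libraries had 507, 487, 666, 398 and 474, which was 0.893 ± 0.0510 (SD, n = 5) of those at circ_0000943. Linear reads at the minor circles were thus nearly as many as at the main circle, although their junction reads were few. The non-junction reads at circ_0000946 in IMA and at circ_0000948 in IMPA are not listed, so the linear RNA at those ends could not be compared between the groups.

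The circular share is 2 times the junction reads over that number plus the non-junction reads. It was higher for the main circle than for the minor ones. This mostly restates their junction reads, since their non-junction reads were nearly as many. For circ_0000943 the circular share was 7.30%, 8.16%, 7.16%, 7.72% and 6.90% in IMPA1 to IMPA5 and 13.6%, 8.89%, 7.77%, 11.2% and 10.4% in IMA1 to IMA5. The groups overlapped, with means of 7.45% ± 0.498 for IMPA and 10.4% ± 2.25 for IMA (SD, n = 5 each). The difference of 2.92 percentage points (1.61 with junction reads counted once) was at the 65.2 percentile of the 690 circRNAs, whose median difference was 1.68 points. Circular shares without overlap were higher in IMA for 4.93% of the 690 circRNAs and lower for 0.145%.

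For circ_0000946 the circular share in IMPA1 to IMPA5 was 1.77%, 0.938%, 2.59%, 0.519% and 0.752%, with a mean of 1.31% ± 0.855 (SD, n = 5). For circ_0000948 in IMA1 to IMA5 it was 0.783%, 0.815%, 0.893%, 0.995% and 1.25%, with a mean of 0.947% ± 0.188 (SD, n = 5). Each of these values was below every value of circ_0000943, whose own mean over all libraries, 8.91%, was at the 39.9 percentile of the 690 circRNAs.

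The authors' predictions list 14 miRNAs for circ_0000943, 8 for circ_0000946 and 9 for circ_0000948, against a median of 9 for the 1315 circRNAs with a prediction. Of the 31 miRNAs, 0 were listed for more than 1 ITGAV circle. The whole list names 435 miRNAs, so short lists such as these can differ without more, and nothing is read from the lack of a shared name. Per 100 nt of circle, the numbers were close, at 2.77, 2.59 and 3.08. The predictions are names only, without a measured miRNA level.

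For circ_0000943 the list holds miR-10a-5p, miR-10b-3p, miR-10b-5p, miR-155-3p, miR-217-5p, miR-2284d, miR-2411-5p, miR-328-3p, miR-338-3p, miR-342-3p, miR-374b-5p, miR-432-5p, miR-502b-3p and miR-655. Of these, miR-155-3p was also predicted on the junction sequence, which exists only in the circle. For circ_0000946 it holds miR-16b-3p, miR-197-3p, miR-26a-5p, miR-26b-5p, miR-3432-5p, miR-34b-3p, miR-34c-3p and miR-412-3p. Here miR-26a-5p and miR-26b-5p were predicted on the junction alone, and miR-197-3p and miR-412-3p on the junction and elsewhere. For circ_0000948 it holds miR-154a-3p, miR-181b-3p, miR-21-3p, miR-214-3p, miR-2483-3p, miR-27a-5p, miR-421-3p, miR-449a-3p and miR-487a-3p, with miR-2483-3p and miR-449a-3p also on the junction.

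Most of these miRNAs were predicted for many other circles. miR-412-3p was listed for 72 circRNAs, miR-214-3p for 68 and miR-338-3p for 62, against a median of 26 per miRNA. At the other end, miR-655 and miR-3432-5p were each listed for 7 circRNAs and miR-374b-5p for 8. miR-26a-5p and miR-26b-5p, predicted on the junction of circ_0000946, were listed for 27 and 28 circRNAs, counting sites on the junction or elsewhere.

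The primers that the study designed for circ_0000946, the circle listed in IMPA alone, are shown without a check of their place on the circle. The paper reports this circle as down regulated in its qRT-PCR, which was not examined here. Both primers have 20 bases and 55.0% G and C.
circ_0000946 F: gacagaaaaccaaacccgcc
circ_0000946 R: aaggtcagagggttgtcgtc

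The circRNAs of other genes most like each circle over the 10 libraries were found by Pearson's r of log2 normalized TPM among 744 circRNAs with a mean count of at least 5. For circ_0000943 these were circ_0009562 of TNPO1, a nuclear import receptor, with r = 0.84, circ_0009889 of MARK3, a kinase of microtubule-associated proteins, with 0.81, and circ_0003673 of MAPK9, the JNK2 kinase, with 0.74. Spearman's rho was 0.85, 0.92 and 0.70. The TNPO1 circle had 14, 13, 13, 17 and 14 reads in IMPA and 18, 14, 15, 13 and 14 in IMA, and IMA1 was its highest library as well.

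For circ_0000946 they were circ_0009231 of CEP112, circ_0005478 of SLTM and circ_0011573 of LOC102191110, with r = 0.95, 0.91 and 0.90 and rho = 0.87, 0.82 and 0.92. The CEP112 circle had 59, 42, 72, 47 and 67 reads in IMPA and 30, 30, 32, 25 and 29 in IMA. For circ_0000948 they were circ_0011446 of MYPN, a sarcomere protein, circ_0008259 of VASH2 and circ_0006499 of LMO7, with r = 0.98, 0.94 and 0.92 and rho = 0.92, 0.70 and 0.89. The MYPN circle had 2, 2, 3, 2 and 2 reads in IMPA and 7, 7, 13, 11 and 14 in IMA. These correlations follow the difference between the groups, since both minor circles were at 0 in a whole group. For the sum of the circles they were circ_0003673 of MAPK9, circ_0009889 of MARK3 and circ_0003788 of VCAN, with r = 0.82, 0.74 and 0.74 and rho = 0.79, 0.83 and 0.44.

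Markers of the cells were sparse, because the table holds circRNAs and few marker genes give any. Of 15 adipocyte markers, PLIN2, a lipid droplet coat protein, had circRNAs, with 5, 4, 4, 2 and 5 reads in IMPA1 to IMPA5 and 10, 6, 10, 9 and 9 in IMA1 to IMA5. The other adipocyte markers, ADIPOQ, FABP4 and PPARG among them, had 0 circRNAs, as had the 15 preadipocyte or fibroblast, 8 endothelial and 7 leukocyte markers, so the labelled cell types could not be checked by them. Of 20 striated muscle markers, 3 had circRNAs, and their reads summed to 14, 13, 15, 16 and 21 in IMPA and 22, 20, 42, 28 and 39 in IMA. PAX7, the marker of muscle satellite cells, held the most, with 12, 11, 12, 14 and 19 reads in IMPA and 8, 8, 19, 10 and 18 in IMA. MYBPC1, of the thick filament, had 0 in each IMPA library and 7, 5, 10, 7 and 7 in IMA, while MYOD1, MYOG and DES had 0 circRNAs. MYBPC1 and MYPN had their higher counts in the libraries that held circ_0000948, and their part in the ITGAV pattern was not tested. In these bulk libraries, fewer cells of a type and less RNA per cell cannot be told apart.

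Adhesion and PI3K-Akt genes other than ITGAV were compared over a list of 134 genes, of which 26 had circRNAs. Of their 45 circRNAs 44 were tested, and 1 was higher in IMA and 0 lower at an adjusted p under 0.01 (edgeR, Benjamini-Hochberg over 1294 circRNAs), where 0.464% of all circRNAs were higher and 0.464% lower. The median log2 fold change of the list was -0.01, beside -0.06 over all circRNAs tested, and 4 circRNAs of the list (9.09%) had an unadjusted p under 0.05, beside 170 (13.1%) of the 1294 tested. Over the same 1294 circRNAs limma voom called 0.927%, with 18.8% at an unadjusted p under 0.05, and DESeq2 called 1%, with 12.2%, and gave 1129 (87.2%) no adjusted p.

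The circRNA called was circ_0005870 of COL5A1, a chain of the fibrillar collagen type V. It had 0, 0, 3, 0 and 0 reads in IMPA1 to IMPA5 and 9, 9, 6, 8 and 6 in IMA1 to IMA5. It was higher in all 5 IMA libraries than in any IMPA library, with a log2 fold change of 2.03 (SE 0.40, edgeR adjusted p = 0.00207). The fold rests on a group with reads in IMPA3 alone and differed between tools, with 3.68 from limma voom and 3.95 from DESeq2, which gave this circle no adjusted p. With a mean count of at least 10 as the filter the circle was not tested. The call was lost without IMPA1 (edgeR adjusted p = 0.014) and without IMPA5 (edgeR adjusted p = 0.0135). The log2 fold change in these fits was 1.94 and 1.93. Over the edgeR and limma alternatives the adjusted p was 0.000281 to 0.014. COL5A1 was put in the list with its values in these libraries known, so its call is not independent evidence on the list.

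Integrin genes other than ITGAV had 6 tested circRNAs, of ITGA4, ITGB1, ITGB5 and ITGB8, and edgeR called 0 of them, with 0 at an unadjusted p under 0.05. limma voom also called 0, and DESeq2 gave none of the 6 an adjusted p. circ_0002495 of ITGB8, a beta chain that pairs with alpha V, had 18, 11, 14, 14 and 14 reads in IMPA and 6, 10, 7, 13 and 9 in IMA, with a log2 fold change of -0.33 (SE 0.26, edgeR adjusted p = 0.599). circ_0000922 of ITGA4 had 5, 12, 8, 5 and 19 reads in IMPA and 10, 7, 16, 6 and 20 in IMA, and its log2 fold change was 0.45 (SE 0.30), or 0.18 without IMA5. circ_0000921 of the same gene had 3, 5, 5, 5 and 0 reads in IMPA and 8, 2, 8, 5 and 5 in IMA, with 0.60 (SE 0.40). This fold was 1.22 with limma voom and 0.36 without IMPA5. circ_0000924 of ITGA4 had the same mean count, 4.6, and a log2 fold change of 0.38 (SE 0.37). The groups overlapped for each of these circles.

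Of 10 tested circRNAs of ligands and matrix genes, edgeR called 1, that of COL5A1, with 2 at an unadjusted p under 0.05. limma voom called 1, with 3, and DESeq2 called 0, with 2, and gave none of the 10 an adjusted p. Beside COL5A1, those with the most reads were of the fibrillins FBN2 and FBN1 and of the growth factor TGFB2. circ_0004055 of FBN2 had a log2 fold change of -0.26 and circ_0005404 of FBN1 of 0.01, both inside their errors (SE 0.26 and 0.30). Without IMA5 they were -0.10 and -0.15. circ_0007872 of TGFB2 had 8, 9, 6, 9 and 8 reads in IMPA and 10, 7, 10, 15 and 16 in IMA, with a log2 fold change of 0.67 (SE 0.28, edgeR adjusted p = 0.237). Of 22 tested circRNAs of adaptors and kinases, edgeR called 0, with 1 at an unadjusted p under 0.05, limma voom called 0, with 3, and DESeq2 called 0, with 0, and gave 19 no adjusted p. The circle with the most reads was circ_0011147 of DOCK1, with a log2 fold change of -0.19 (SE 0.21), or 0.03 without IMPA3. That of circ_0006147 of LIMS1 was 0.22 (SE 0.21), or 0.06 without IMA2. The 1 in edgeR was circ_0006764 of ARHGEF7, an exchange factor at focal adhesions, with 35, 20, 28, 24 and 34 reads in IMPA and 18, 14, 0, 13 and 19 in IMA. Its log2 fold change was -0.77 (SE 0.28, edgeR adjusted p = 0.178), and it was -0.45 without IMA3, the library with 0 reads, and -1.70 with limma voom.

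Of 6 tested circRNAs of the PI3K-Akt genes, edgeR called 0, with 1 at an unadjusted p under 0.05. limma voom and DESeq2 called 0 as well, each with 1, and DESeq2 gave 5 no adjusted p. PDPK1 encodes the kinase PDK1, which activates Akt, and PHLPP1 a phosphatase that switches Akt off. circ_0010771 of PDPK1 had a log2 fold change of -0.08 (SE 0.21), or 0.01 without IMPA4. That of circ_0010668 of PHLPP1 was -0.21 (SE 0.23), or -0.09 without IMA4. circ_0010669, another of the 3 PHLPP1 circles tested, had 14, 11, 14, 6 and 9 reads in IMPA and 3, 4, 4, 8 and 5 in IMA, with a log2 fold change of -0.70 (SE 0.31, edgeR adjusted p = 0.277).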

How the data were processed

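The authors removed ribosomal RNA, called circRNAs with find_circ (read count of at least 2) and CIRI2, and kept locations found by both. The deposited count is the number of back-splice junction reads, and the deposited TPM is that count per 1000000 junction reads, a CPM without a length term. Genome build and versions are not given in the sources used here. The annotation table also lists 10 further library names, which were not used. Junction reads of the annotation and count tables did not differ (0 values).

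Tests used edgeR 4.0.16 (TMM, glmQLFit, glmQLFTest, prior count 2) in R 4.3.3 over the 1294 circRNAs counted in 5 libraries or more, with Benjamini-Hochberg adjustment at 0.01. DESeq2 1.42.0, limma 3.58.1 and leaving out each library were alternatives. Shares were computed in Python 3.11.15 with scipy 1.17.1 and exact binomial intervals. Named circRNAs were those of ITGAV, adhesion circRNAs with an adjusted p under 0.05 or among the 3 with the most reads of a role, the 3 most correlated circRNAs of other genes, and all predicted miRNAs of ITGAV circles. The members and lists were chosen with earlier results of these data known.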

Additional observations from a re-analysis of the deposited data

Results flagged for a closer look

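In 52 groups of 5 libraries, 7 held a library far from the other 4, where chance gives about 1 in 20. The groups share libraries and reads, and with counts this low some ratios are fixed by zeros, so no excess is read from the number. The ratio is the gap to the nearest library over the range of the group. IMA1 had 48 junction reads of circ_0000943 against 26 to 31 in the other IMA libraries (0.773) and 50 of all ITGAV circles against 28 to 34 (0.727). IMPA5 had the lowest summed normalized TPM, 2303 against 2861 to 3085 (0.714), and IMPA2 the fewest non-junction reads at circ_0000946, 634 against 752 to 792 (0.747). In normalized TPM, IMPA3 had 223 of circ_0005870 of COL5A1 against 0 in the other IMPA libraries (1). IMPA3 also had 223 of circ_0005404 of FBN1 against 780.3 to 987 (0.73), and IMA3 had 0 of circ_0006764 of ARHGEF7 against 1302 to 1822 (0.714). The causes were not tested.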

How the results depend on the processing

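Of the alternatives for the ITGAV measures and the adhesion count, 87 left the value within the spread of libraries or the count unchanged, and 5 did not. The share of circ_0000948, 7.16 points higher in IMA, became 4.32 points with a count of 0 taken as 1 read. The share of circ_0000946 was -12.9 points (IMA minus IMPA), -14.8 to -10.0 with a library left out, and that of circ_0000943 5.75 points (2.88 to 7.62). Of the 87, 2 came from keeping only circles with a mean count of at least 5 in one of the groups. This kept circ_0000946 by its IMPA reads and dropped circ_0000948, which left circ_0000943 alone in IMA. The difference for circ_0000943 then became 12.9 points, and nothing is read from it. The circular share difference of 2.92 points was 2.11 to 3.57 with a library left out and 1.61 with junction reads counted once, the summed log2 difference 0.01 to 0.22 and the non-junction log2 difference 0.01 to 0.08 (-0.02 without TMM). The adhesion count of 1 became 0 with a mean count of at least 10, where the COL5A1 circle was not tested, and 0 with DESeq2's Wald test, which gave that circle no adjusted p. It was 0 to 1 with a library left out, and 0 without IMPA1 or IMPA5. Over all circRNAs, 6 were higher and 6 lower, but 6 and 2 without TMM and 3 and 10 with DESeq2. A mean count of at least 10 also gave 3 and 10. With a library left out, 5 to 6 were higher and 2 to 6 lower, the 2 without IMPA3, IMPA5 or IMA1. The replicate numbers did not pair the libraries (residual r -0.05 to 0.01), and with the replicate number as a block the adhesion count was 1, with 6 higher and 5 lower over all circRNAs. The sign turned for circ_0005404 of FBN1 without IMPA3 (-0.19) and IMA5 (-0.15; range with a library left out -0.19 to 0.13), circ_0011147 of DOCK1 without IMPA3 (0.03; -0.39 to 0.03) and circ_0010771 of PDPK1 without IMPA4 (0.01; -0.18 to 0.01), none of them called. Of other folds not called, leaving out a library gave -0.50 to -0.21 for circ_0002495 of ITGB8, 0.18 to 0.70 for circ_0000922 and 0.36 to 0.75 for circ_0000921 of ITGA4 (1.22 with limma voom), -0.38 to -0.10 for circ_0004055 of FBN2, 0.06 to 0.32 for circ_0006147 of LIMS1, -0.97 to -0.45 for circ_0006764 of ARHGEF7 (-1.70 with limma voom) and -0.34 to -0.09 for circ_0010668 of PHLPP1. The causes were not tested. Counts of 2 to 10 reads limit the minor circles.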
